A study of Homo sapiens with 6 samples.

Results

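Transcripts of the ERBB receptors, their EGF-family ligands and the receptor inhibitor ERRFI1 were followed in CAOV2 human ovarian cancer cells after silencing of TAZ. The set holds 8 genes chosen by symbol, namely the receptors EGFR, ERBB2 and ERBB3, the ligands AREG, EREG, HBEGF and TGFA, and ERRFI1. All 8 were found among the 17211 genes of the deposited table. Their Ensembl identifiers there are ENSG00000146648 (EGFR), ENSG00000141736 (ERBB2), ENSG00000065361 (ERBB3), ENSG00000109321 (AREG), ENSG00000124882 (EREG), ENSG00000113070 (HBEGF), ENSG00000163235 (TGFA) and ENSG00000116285 (ERRFI1). They were picked with earlier results of this same contrast known, so their levels in the siTAZ and siNT libraries chose them and are given here as a description, with no test.

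There were 3 libraries of cells that received siRNA against TAZ (siTAZ) and 3 of cells that received a non-targeting siRNA (siNT). Both groups were seeded at 100000 cells in a well, given 100 pmol of siRNA and 6 µL of Lipofectamine RNAiMAX for 2 days, and collected at day 3, per the labels' protocols. They therefore share serum-fed culture and the transfection itself, no untransfected cells were analysed here, and CAOV2 is a single line that the labels also describe as primary cells. The siTAZ reagent carries 1 catalogue number, and whether it is 1 siRNA or a pool is not stated. The labels call the replicates biological without saying that they came from separate cultures or days, so p-values measure only the spread between these samples, and that spread may be technical.

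The ERBB receptors are cell-surface tyrosine kinases that signal as pairs. EGFR binds several ligands of the EGF family, ERBB2 has no known soluble ligand and is a favoured partner of the other receptors, and ERBB3 binds neuregulins but has a very weak kinase of its own. The ligands are made as membrane-bound precursors and are released by ADAM proteases, and active receptor pairs feed the RAS to MAPK and the PI3K to AKT branches. ERRFI1 (MIG6) is a feedback inhibitor that binds the EGFR kinase domain, and the receptors are well known as growth drivers in ovarian and other carcinomas. TAZ (gene WWTR1) is held in check by Hippo signalling and switches on transcription through TEAD factors, and AREG is often used as a readout of its relative YAP.

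The targeted gene was low in every siTAZ library. WWTR1, which encodes TAZ, had deposited values of 4359, 4217 and 4258 in siNT and of 242, 277 and 280 in siTAZ. YAP1, the gene of its relative YAP, was also lower in siTAZ, by less, with means of 5992 in siNT and 4875 in siTAZ. The part of YAP1 in the results below was not tested. A deposited value is a gene's read count divided by the size factor of its library, which puts libraries of different depth on one scale. The libraries held 25478595 to 34488196 reads in genes. Of the epithelial markers, 6 of 6 were measured, and their summed deposited value ran from 96330 to 104749 in siNT and from 92338 to 100591 in siTAZ. Within that list EPCAM had a mean of 501 in siNT and 1361 in siTAZ, CDH1 of 256 and 579, and KRT7 of 22847 and 8604, so single epithelial genes moved in both directions. Of the ovarian carcinoma markers, PAX8 (28.8 and 18.2), MUC16 (11.9 and 7.98) and MSLN (2.63 and 7.64) were low in both groups, and WT1, SOX17 and ESR1 had no named row, so these markers do not show an ovarian identity. Of the markers of other cells, those of fibroblasts (5 of 6 measured) summed to 4592 to 5331 in siNT and 5271 to 6064 in siTAZ, endothelial ESAM (1 of 5) to 1673 to 1873 and 1090 to 1289, and those of leukocytes (3 of 6) to 143 to 145 and 187 to 239. In the fibroblast list COL3A1 had a mean of 661 in siNT and 1408 in siTAZ and PDGFRB of 10.1 and 34.2. COL1A2 stood at 12.6 and 1.30, COL1A1 at 425 and 453 and LUM at 3797 and 3885. LUM made up most of that sum, and the difference between the groups rests mainly on COL3A1. In the leukocyte list LYZ had a mean of 20.9 in siNT and 127 in siTAZ, CD79A of 64.6 and 34.5 and CD68 of 58.3 and 52.4, so its higher sum rests on LYZ. PTPRC, CD3E, PECAM1, CDH5 and DCN, which help define such cells, had no named row. The part of these genes in the results below was not tested. In bulk RNA, fewer cells with a transcript and less of it per cell cannot be told apart.

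ERBB3 and ERBB2 stood far higher in siTAZ, EREG and TGFA were moderately higher, HBEGF was lower, EGFR and ERRFI1 were slightly lower, and AREG overlapped between the groups. Of the 8 genes, 7 had groups that did not overlap, 4 with siTAZ higher and 3 with siTAZ lower. Over all 17204 genes with a mean value of at least 1, 61.4% had groups that did not overlap, 31.1% with siTAZ higher and 30.3% with siTAZ lower. A log2 fold change of at least 1 towards siTAZ was seen in 2 of the 8, ERBB3 and ERBB2, against 7.24% of all genes. None of the 8 was as far towards siNT, against 4.23% of all genes. The median log2 fold change of the 8 was 0.05 and that of all genes was -0.00126. Since the genes were picked on this contrast, nothing is read from these counts.

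**Figure D1:**
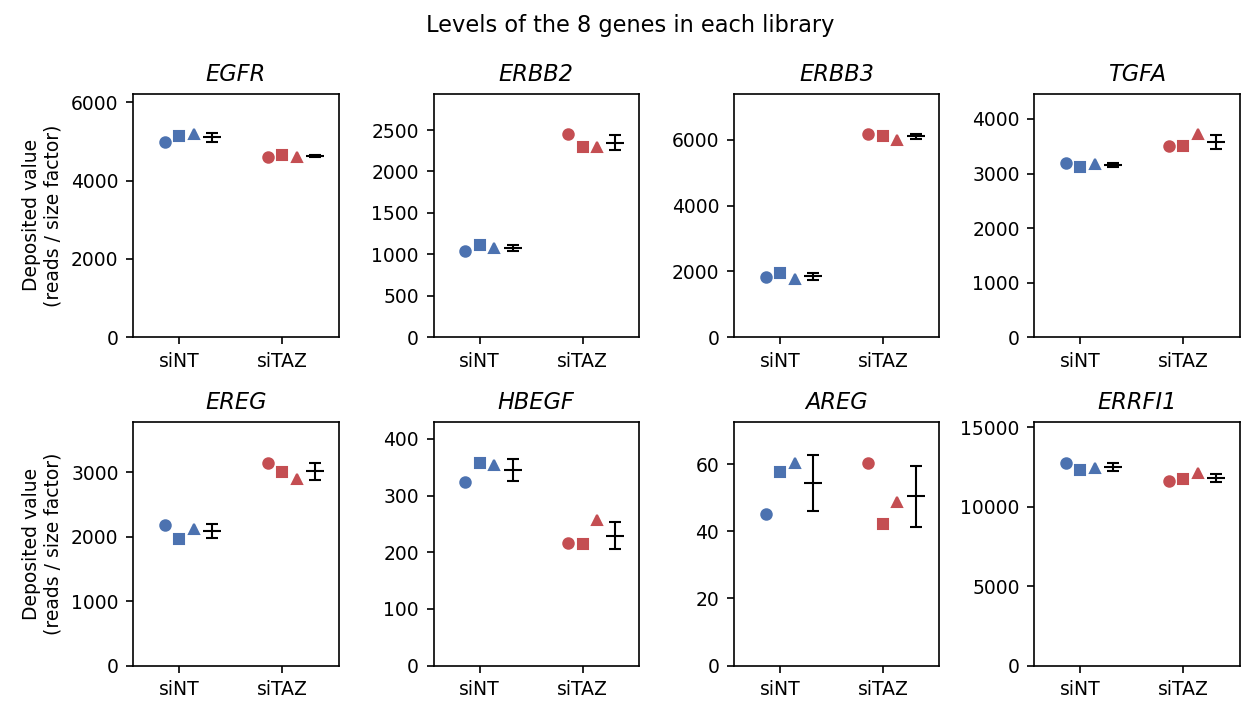
Deposited values (reads divided by the size factor, linear axes from 0) of the 8 genes in the siNT (blue) and siTAZ (red) libraries, with circles, squares and triangles for replicates 1, 2 and 3 and the black bar for mean ± SD. ERBB3 and ERBB2 lie in clearly separate ranges, while the AREG libraries of the groups interleave between 42.2 and 60.4.

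Among the receptors, ERBB3 differed most. Its deposited values were 1818, 1964 and 1768 in siNT and 6179, 6132 and 6015 in siTAZ. Every siTAZ library held over 3 times the value of any siNT library. The mean was 1850 ± 102 in siNT and 6109 ± 84.7 in siTAZ (SD, n = 3 each), a ratio of 3.30, with a log2 fold change of 1.72 (SE 0.05). All log2 fold changes compare siTAZ with siNT after adding 1 to each deposited value. Of 17204 genes, 387 had a higher log2 fold change than ERBB3.

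ERBB2 (HER2), the receptor without a known soluble ligand, was also higher in siTAZ, by a smaller factor. Its values were 1041, 1111 and 1080 in siNT and 2451, 2295 and 2301 in siTAZ. The groups were far apart, with the highest siNT library below the lowest siTAZ library by more than 1000 units. The ratio of means was 2.18 (1077 ± 35.0 against 2349 ± 88.5, SD, n = 3 each), the log2 fold change was 1.12 (SE 0.05), and 1022 genes had a higher one.

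EGFR, the receptor for all 4 of the ligands described here, had values of 4987, 5136 and 5189 in siNT and 4612, 4653 and 4601 in siTAZ. All siTAZ libraries were below all siNT libraries, but the distance was small: the ratio of means, siNT over siTAZ, was 1.10 and the log2 fold change was -0.14 (SE 0.04). With libraries scaled by their total reads it was -0.09. EGFR was also the steadiest of the 8 in siTAZ, with a coefficient of variation of 0.594%, below the 1.42% that read counting alone would give.

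Compared per length of transcript, the receptors changed places. RPKM values, reads scaled by merged exon length and library total, were 13.4 ± 0.17 for EGFR, 6.70 ± 0.39 for ERBB3 and 3.42 ± 0.10 for ERBB2 in siNT, and 12.5 ± 0.13, 23.0 ± 0.30 and 7.73 ± 0.26 in siTAZ (SD, n = 3 each). The per-length level of ERBB3 was 0.472 to 0.530 of that of EGFR over the siNT libraries and 1.81 to 1.86 over the siTAZ libraries. EGFR made up 55.8% to 58.0% of the summed receptor RPKM in siNT and 28.6% to 29.3% in siTAZ. ERBB3 made up 27.4% to 29.6% in siNT and 53.0% to 53.3% in siTAZ, and ERBB2 14.4% to 14.6% and 17.5% to 18.4%. The sum of the receptors was 23.5 ± 0.54 RPKM in siNT and 43.2 ± 0.49 in siTAZ. Shares and sums depend on the length used. With the longest transcript instead, mean shares in siNT and siTAZ were 49.5% and 23.8% for EGFR and 29.7% and 52.1% for ERBB3. ERBB2 then took 20.8% and 24.1%, and the sums were 34.4 and 67.3 RPKM. The per-length ratio of ERBB3 to ERBB2 was 1.87 to 2.02 in siNT and 2.88 to 3.05 in siTAZ. The lengths come from GENCODE release 29 and not from the annotation used for counting, which limits the ratio between genes but not its change between groups.

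**Figure D2:**
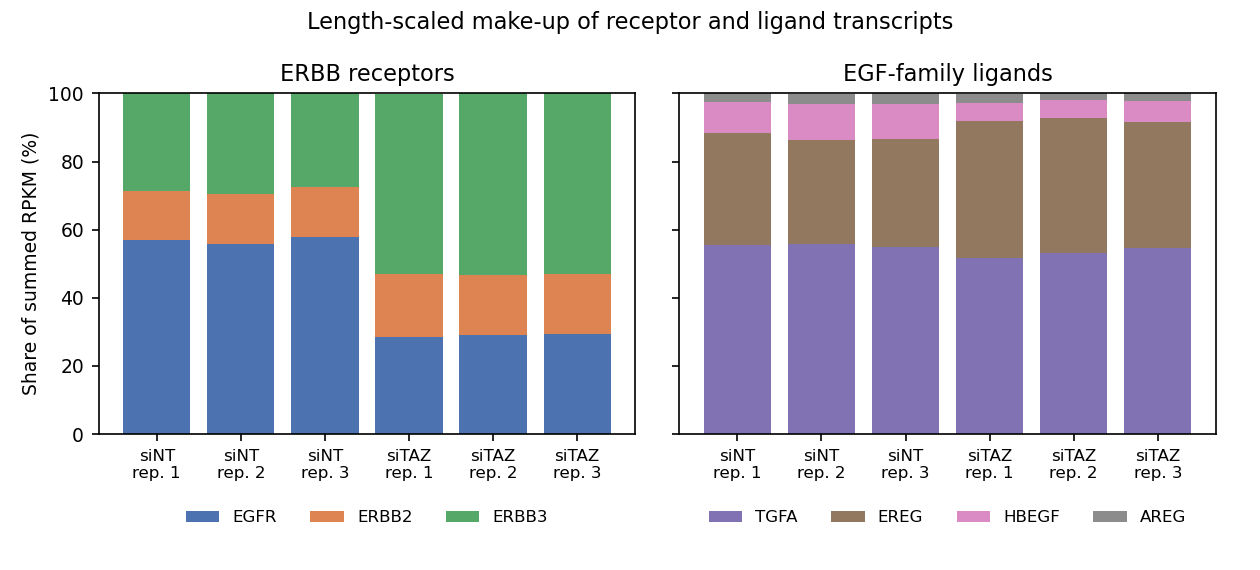
Share (%) of summed RPKM taken by each receptor (left) and each ligand (right) in each library, as stacked bars that reach 100%. EGFR is the largest receptor share in the 3 siNT libraries and ERBB3 in the 3 siTAZ libraries, while TGFA is the largest ligand share throughout. The ligand shares depend on the AREG level, which is uncertain as described with that gene.

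The ligands were not uniform. TGFA, transforming growth factor alpha, had values of 3194, 3121 and 3173 in siNT and 3497, 3513 and 3723 in siTAZ. Each siTAZ library was above each siNT library by a margin that was small for the level. The ratio of means was 1.13 and the log2 fold change 0.18 (SE 0.05), or 0.23 with total count scaling.

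EREG, epiregulin, a ligand of EGFR and ERBB4, had values of 2177, 1964 and 2126 in siNT and 3151, 3006 and 2892 in siTAZ. The groups did not overlap. Means were 2089 ± 111 and 3016 ± 130 (SD, n = 3 each), a ratio of 1.44 and a log2 fold change of 0.53 (SE 0.05).

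HBEGF, heparin-binding EGF-like growth factor, stood lower in siTAZ, with values of 324, 358 and 354 in siNT and 217, 214 and 258 in siTAZ. All siTAZ libraries were below all siNT libraries, and siTAZ replicate 3 was the highest of its group. Means were 345 ± 18.9 and 229.5 ± 24.3 (SD, n = 3 each), a ratio, siNT over siTAZ, of 1.504 and a log2 fold change of -0.59 (SE 0.09), the lowest of the 8 genes.

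AREG, amphiregulin, was the scarcest of the 8. Its values were 45.0, 57.7 and 60.4 in siNT and 60.3, 42.2 and 48.6 in siTAZ, from 43 to 58 reads a library. The groups overlapped, and 1 siTAZ library lay above 2 siNT libraries. The log2 fold change was -0.11 (SE 0.19), and it ran from -0.25 to 0.00 with 1 library left out at a time, so at this depth no difference could be seen in either direction. Its coefficient of variation was 15.1% in siNT and 18.2% in siTAZ, close to the 14.3% and 13.7% that counting alone would give. The AREG level is uncertain, because the hg19 assembly carries the gene as a near-identical pair, AREG and AREGB, the latter being listed as a synonym of AREG in the RefSeq table, and the treatment of reads that match both was not stated.

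Per length, TGFA was the most abundant of the 4 ligand transcripts, at 20.9 ± 0.33 RPKM in siNT and 24.5 ± 0.88 in siTAZ, followed by EREG at 12.0 ± 0.66 and 17.9 ± 0.72. HBEGF stood at 3.75 ± 0.18 and 2.58 ± 0.27, and AREG at 1.08 ± 0.16 and 1.04 ± 0.18 (SD, n = 3 each). That order held in both groups and no neighbours in it overlapped. Both the order and the shares that follow carry the uncertainty in the AREG level given above. EREG took 30.5% to 32.9% of the summed RPKM of these ligands in siNT and 36.9% to 40.4% in siTAZ, and HBEGF 9.25% to 10.5% and 5.27% to 6.23%. The per-length ratio of EREG to HBEGF was 2.89 to 3.55 in siNT and 5.93 to 7.66 in siTAZ.

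EREG and AREG lie next to each other on chromosome 4, and the 250 bases before their annotated starts are shown so that this pair of neighbouring ligand genes can be set side by side. Whether their changes between groups differ was not tested, and the AREG level carries the uncertainty given above. The sequences are RefSeq's, of build GRCh38.p14, plus strand, 5′ to 3′, at chr4:74364895-74365144 for EREG and chr4:74444886-74445135 for AREG. Capitals mark exact matches, on either strand, to GGAATG (the core that TEAD factors recognise), TGANTCA (AP-1), TGACGTCA (the cAMP response element, CRE) and TATAAA (the TATA box), and none of the matches shown overlap.
EREG: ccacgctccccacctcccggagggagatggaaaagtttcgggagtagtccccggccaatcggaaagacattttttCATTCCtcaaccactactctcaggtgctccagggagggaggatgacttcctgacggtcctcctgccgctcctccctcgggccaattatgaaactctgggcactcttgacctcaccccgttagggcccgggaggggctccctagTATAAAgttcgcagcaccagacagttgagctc
AREG: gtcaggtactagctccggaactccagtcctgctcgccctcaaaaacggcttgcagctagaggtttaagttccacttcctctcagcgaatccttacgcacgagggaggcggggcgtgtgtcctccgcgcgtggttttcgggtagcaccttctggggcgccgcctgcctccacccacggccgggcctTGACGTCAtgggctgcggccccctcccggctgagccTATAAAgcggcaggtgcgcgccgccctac
EREG has CATTCC, the reverse complement of the TEAD core, starting 175 bases before its start, and TATAAA starting 32 bases before it. AREG has the full CRE starting 65 bases before its start and TATAAA starting 29 bases before it, with no TEAD core in this window. Of 35116 promoter windows of that length, 11.9% hold the TEAD core, 6.57% the AP-1 motif, 1.65% the CRE and 10.7% TATAAA. RefSeq windows matched 7 of the 8 genes, in 9 windows, and ERBB3 had no entry. The TEAD core was in 2 of the 9 (EREG and the downstream window of EGFR), the AP-1 motif in 2 (that EGFR window and ERBB2), the CRE in 1 and TATAAA in 3. HBEGF, TGFA and ERRFI1 had none of these letters in their windows. These matches are descriptions of sequence, and binding was not measured here.

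ERRFI1, the feedback inhibitor, was the most abundant of the 8. Its values were 12777, 12292 and 12449 in siNT and 11609, 11765 and 12115 in siTAZ. The groups were close but did not overlap on the deposited scale. As CPM, reads scaled by the library total, the siNT libraries ran from 403 to 422 and the siTAZ libraries from 393 to 412, so they overlapped. The ratio of means, siNT over siTAZ, was 1.06 and the log2 fold change -0.08 (SE 0.04), or -0.03 with total count scaling. The per-length ratio of ERRFI1 to EGFR was 7.16 to 7.66 in siNT and 7.53 to 7.88 in siTAZ, ranges that overlap.

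**Figure D3:**
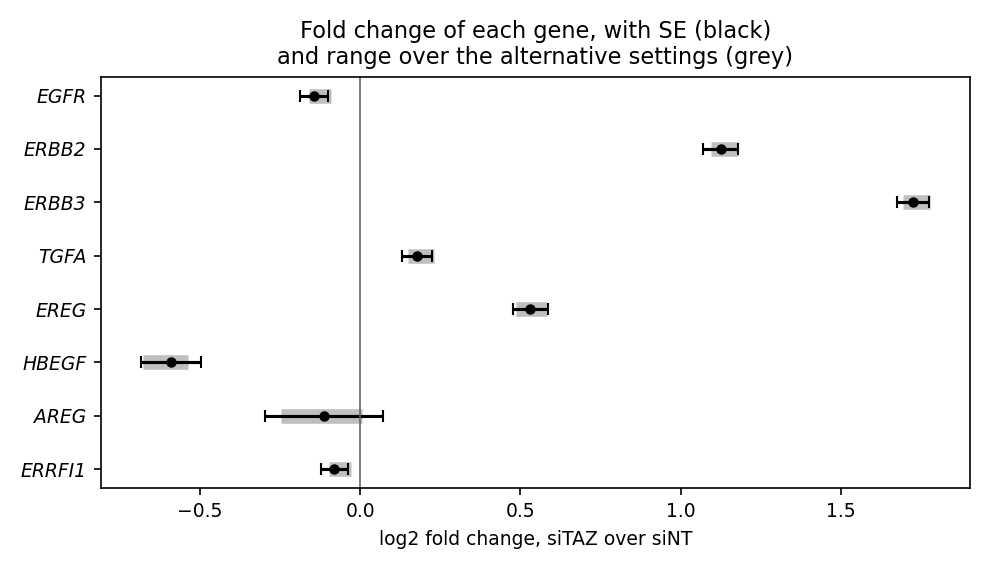
Log2 fold change of siTAZ over siNT for each of the 8 genes, with black points and bars for the estimate and its SE and grey bars for the range over 15 alternative settings. ERBB3 and ERBB2 sit above 1, AREG is the only gene whose grey range reaches 0, and HBEGF has the lowest value at -0.59.

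Ordered by RPKM over merged exons, the 8 genes in siNT were ERRFI1, TGFA, EGFR, EREG, ERBB3, HBEGF, ERBB2 and AREG. In siTAZ the order was ERRFI1, TGFA, ERBB3, EREG, EGFR, ERBB2, HBEGF and AREG. No neighbours in either order overlapped between libraries, although HBEGF (3.54 to 3.89) and ERBB2 (3.33 to 3.53) nearly met in siNT. The last place of AREG carries the uncertainty in its level given above. Scaled by the longest transcript, ERBB2 (7.16) stood above HBEGF (4.74) in siNT, and in siTAZ ERBB3 (35.1) stood above TGFA (28.2) and ERBB2 (15.9 to 16.8) overlapped EGFR (15.9 to 16.2).

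Likeness of pattern was measured for the genes with the highest and lowest log2 fold change, as Pearson's r of log2 values over the 6 libraries, against 11249 other named genes with a mean of at least 100. The libraries fall into 2 groups that set most of each r, so it is given only to say which genes were named. For ERBB3 the leading genes included FYCO1, an adaptor of autophagosome transport, the transcription factor SOX4, and HS3ST5, a heparan sulfate sulfotransferase, with r between 0.9998 and 0.9999. HS3ST5 had values of 63.9, 74.8 and 61.6 in siNT and 372, 378 and 359 in siTAZ. As many as 575 genes had an r over 0.99 with ERBB3, against 10 for HBEGF. For HBEGF they included ADM2, a peptide hormone gene, ARMC10 and EID2, with r of 0.998, 0.996 and 0.995. ADM2 had values of 337, 358 and 360 in siNT and 234, 239 and 274 in siTAZ. It was picked for its likeness to HBEGF over these same libraries, so nothing is read from a shared order of replicates.

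Other genes of the pathway, none of them among the 8, were tested in lists that were also drawn up with earlier results of these data known. Lists of 105 other ERBB pathway genes covered remaining family members, ligand release, receptor restraint, receptor uptake, signal transducers and output genes. Of the 98 that were measured, 36 rose, 29 fell and 33 did not pass limma's test at a Benjamini-Hochberg adjusted p of 0.05 over all genes. Over all 17204 genes tested, 55.8% were called, 28.3% as higher and 27.5% as lower, against 36.7% and 29.6% of the list. The list's median log2 fold change was 0.0054, near that of all genes. Changes of at least 2-fold by the log2 fold change were seen in 4 genes upwards and 1 downwards. With total count scaling 43 rose and 23 fell, which is 43.9% and 23.5% of the list, against 32.3% and 23.5% of all genes.

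**Figure D4:**
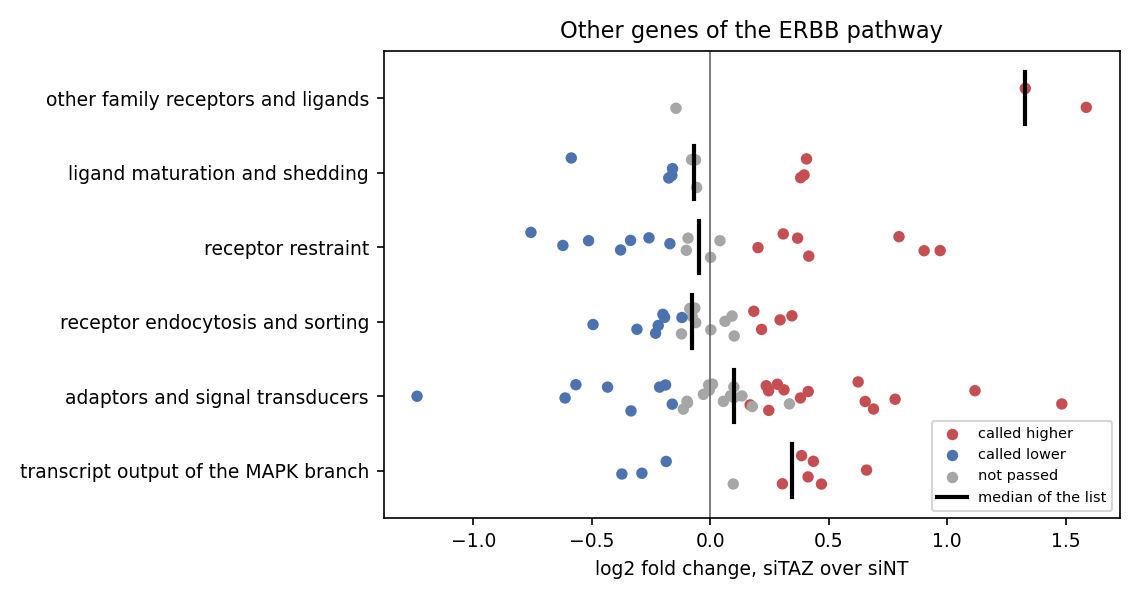
Log2 fold change of siTAZ over siNT for each measured gene of the 6 pathway lists, coloured by limma's call (red higher, blue lower, grey not passed), with a black line at the median of each list. The restraint list holds 7 genes called higher and 7 called lower (38.9% each, against 28.3% and 27.5% of all genes). The MAPK output list has its median at 0.34.

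Of the 8 remaining receptors and ligands of the family, 3 were measured, and ERBB4, EGF, EPGN, NRG1 and NRG3 had no named row and were not analysed here. BTC, betacellulin, a ligand of EGFR and ERBB4, rose from a low level. Its values were 9.42, 15.0 and 9.67 in siNT and 32.2, 35.8 and 38.4 in siTAZ (limma adjusted p = 6.2e-05). The log2 fold change was 1.59 (SE 0.26), or 1.10 with a pseudocount of 10. NRG2, a neuregulin that binds ERBB3 and ERBB4, was lower still, with values of 4.19, 4.28 and 8.46 in siNT and 13.5, 14.7 and 17.1 in siTAZ (limma adjusted p = 0.0052). The log2 fold change was 1.33 (SE 0.37), or 0.69 with a pseudocount of 10, and a filter of 1 CPM in 3 libraries removes NRG2 and so ends this call. NRG4, a ligand of ERBB4, overlapped between groups, at 300.1 ± 23.9 in siNT and 272 ± 34.6 in siTAZ (SD, n = 3 each, limma adjusted p = 0.24). Per length, NRG2 stood at 0.041 ± 0.017 RPKM in siNT and 0.113 ± 0.014 in siTAZ, far below its receptor ERBB3.

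Of 12 genes of ligand maturation and shedding, 10 were measured. Of these, 3 rose and 4 fell, or 30% and 40%, against 28.3% and 27.5% of all genes. FURIN, a proprotein convertase that activates ADAM proteases, fell 1.501-fold, from 15053 ± 662 to 10028 ± 692 (SD, n = 3 each, limma adjusted p = 6.9e-08). ADAM9, a membrane metalloprotease, rose 1.32-fold, from 8065 ± 477 to 10685 ± 604. RHBDF2 (iRhom2), which guides ADAM17 to the surface, and CNIH1, a cargo receptor of the secretory route, rose 1.31-fold and 1.30-fold. ADAM17 and ADAM10, the main sheddases of these ligands, are named here after their values were seen. ADAM17 fell from 1934 ± 42.7 to 1728 ± 59.5 (limma adjusted p = 0.012) and ADAM10 from 4561 ± 229 to 4039 ± 228 (limma adjusted p = 0.01). With total count scaling only FURIN of the 4 falls passed, and ADAM17, ADAM10 and FRMD8, an iRhom-binding protein gene, did not (limma adjusted p = 0.084, 0.07 and 0.13). With the replicate block FURIN and ADAM10 passed, and ADAM17 and FRMD8 did not (limma adjusted p = 0.066 and 0.078).

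Genes that bear on receptor restraint changed in both directions. All 18 were measured, 7 rose, 7 fell and 4 did not pass. Each direction held 38.9% of the list, against 28.3% (higher) and 27.5% (lower) of all genes. The list also holds UBASH3B, which acts against restraint, so its counts are not counts of restraining genes alone. LRIG1, a membrane protein that promotes ERBB receptor turnover, rose 1.87-fold, with values of 214, 268 and 244 in siNT and 437, 455 and 461 in siTAZ (limma adjusted p = 2.3e-07, log2 fold change 0.90 with SE 0.09). PTPRJ, a receptor phosphatase that acts on EGFR, rose 1.74-fold, from 2969 ± 104 to 5156 ± 149 (limma adjusted p = 4.2e-10). UBASH3B (STS-1), which counters CBL-driven loss of EGFR, fell 1.54-fold, from 4804 ± 130 to 3119 ± 29.5. SH3KBP1 (CIN85), a CBL-binding adaptor of receptor uptake, fell 1.43-fold, from 2573 ± 42.0 to 1802 ± 59.4 (SD, n = 3 each).

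Of 21 genes of receptor endocytosis and sorting, 4 rose, 7 fell and 10 did not pass, none of them by as much as 2-fold. That is 52.4% called, against 55.8% of all genes. AP2S1, the small subunit of the AP-2 clathrin adaptor, fell 1.41-fold (limma adjusted p = 5.0e-07). HGS, a subunit of the ESCRT machinery that sorts receptors to lysosomes, fell 1.24-fold. RAB11A, a GTPase of recycling endosomes, rose 1.27-fold and DNM2, the dynamin that pinches off vesicles, rose 1.23-fold.

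Among 36 adaptors and signal transducers, 14 rose, 8 fell and 14 did not pass. So 38.9% rose and 22.2% fell, against 28.3% and 27.5% of all genes. PTPN11 (SHP2), a phosphatase that carries receptor signals to RAS, fell most. Its values were 10213, 9692 and 9966 in siNT and 3828, 4342 and 4518 in siTAZ, a 2.35-fold fall (limma adjusted p = 1.5e-11, log2 fold change -1.24 with SE 0.06). Processed copies of PTPN11 exist in the genome, so part of its reads is uncertain. SHC1, an adaptor that binds the phosphorylated receptors, fell 1.53-fold, from 11033 ± 272 to 7215 ± 298 (limma adjusted p = 6.8e-09). PIK3R1, the regulatory subunit of PI3K that binds ERBB3 directly, rose 1.57-fold, from 1240 ± 10.1 to 1951 ± 64.7, and VAV2, a guanine nucleotide exchange factor, rose 1.61-fold, from 1241 ± 85.4 to 1999 ± 87.4 (SD, n = 3 each).

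The 10 output genes of the MAPK branch were all measured. Their median log2 fold change was 0.34, and 6 rose, 3 fell and 1 did not pass. The shares, 60% higher and 30% lower in a list of 10, stand against 28.3% and 27.5% of all genes. SPRY4, a feedback inhibitor of RAS signalling, rose 1.58-fold, from 4723 ± 118 to 7460 ± 196 (limma adjusted p = 2.1e-09), its relative SPRY2 rose 1.35-fold and the ERK phosphatase DUSP4 rose 1.33-fold. Cyclin D1 (CCND1) fell 1.30-fold, from 28470 ± 576 to 21972 ± 293 (SD, n = 3 each, limma adjusted p = 1.2e-06).

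Receptor tyrosine kinases outside the ERBB family give the nearest comparison for the receptors. Of 54 listed, 38 were measured (EPHA2 and EPHA4 are also in the MAPK output list), and 22 rose, 7 fell and 9 did not pass, so 57.9% were called higher against 28.3% of all genes. Their median log2 fold change was 0.55, and 11 of the 38 had a log2 fold change of at least 1. Of these 11, RET, FGFR3 and ROR2 had siNT means of 101, 436 and 302. The rest were scarce, with siNT means from 3.65 (KIT, which did not pass) to 37.5 (EPHA10). With a filter of 1 CPM in 3 libraries, 18 kinases were called higher and 7 lower. The rises counted here therefore rest partly on scarce transcripts. RET, the GDNF family receptor, rose 6.64-fold, with values of 112, 102 and 89.4 in siNT and 683, 649 and 681 in siTAZ (limma adjusted p = 8.6e-13). FGFR3 rose 4.96-fold, from 436 ± 40.2 to 2159 ± 84.0 (limma adjusted p = 1.7e-13), ROR2, a WNT receptor, rose 2.58-fold and TYRO3, a receptor of the TAM family, rose 1.76-fold. Of the 38, 6 had a higher log2 fold change than ERBB3, 10 a higher one than ERBB2 and 29 a higher one than EGFR. Those above ERBB3 were RET, FGFR3 and the sparse AATK, NTRK2, PDGFRB and STYK1. The siNT means of these last genes were 13.5, 13.9, 10.1 and 6.33, against 1850 for ERBB3, so these ranks rest partly on scarce transcripts. By RPKM, 8 of the 38 stood above ERBB3 in siNT and 5 in siTAZ, 18 and 10 stood above ERBB2, and 5 and 8 above EGFR.

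**Figure D5:**
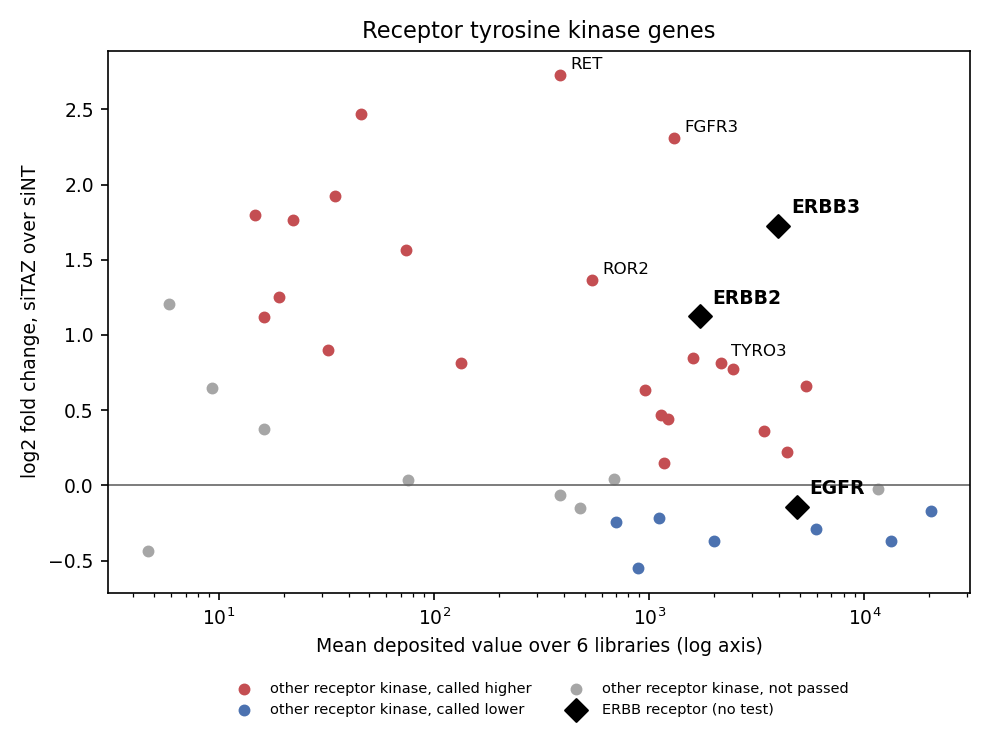
Log2 fold change of siTAZ over siNT against the mean deposited value over 6 libraries (log axis) for 38 other receptor tyrosine kinase genes, coloured by limma's call, and for the ERBB receptors as black diamonds, which were not tested. ERBB3 and ERBB2 lie above 1, where every other kinase at that height has a lower mean value than either. EGFR lies just below 0 among the abundant kinases.

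Genes near the members on the chromosome were tested as well. Not all are adjacent: the farthest, COX18, has 17 coding genes between it and AREG in RefSeq's order and is among those that rose. Of 43 neighbours, 29 were measured, 11 rose, 3 fell and 15 did not pass, so 48.3% were called against 55.8% of all genes. In the neighbourhood of EREG and AREG, which also holds BTC, 4 of 14 rose and 1 fell (35.7% called), with a median log2 fold change of -0.00186. PARM1, a mucin-like membrane protein gene with 1 coding gene between it and AREG in RefSeq's order, rose 4.25-fold, with values of 123, 135 and 114 in siNT and 501, 525 and 552 in siTAZ (limma adjusted p = 1.2e-11). MTHFD2L, a mitochondrial folate enzyme gene on the other side, fell 2.27-fold, from 941 ± 16.2 to 415 ± 5.4 (limma adjusted p = 1.1e-10). G3BP2, a stress granule protein gene, rose 1.27-fold.

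Around ERBB2, 7 of 15 neighbours rose, 2 fell and 6 did not pass (60% called). GRB7, an adaptor that binds ERBB2 and is often amplified with it, is also among the adaptors above and rose 2.78-fold, with values of 63.9, 89.8 and 60.4 in siNT and 199, 198 and 197 in siTAZ (limma adjusted p = 1.4e-07, log2 fold change 1.48 with SE 0.14). MIEN1, which lies between ERBB2 and GRB7 in RefSeq's order, fell 2.49-fold, with values of 671, 749 and 760.1 in siNT and 294, 286 and 295 in siTAZ (limma adjusted p = 2.3e-10). MIEN1 overlaps the end of ERBB2 in the RefSeq table and is read from the opposite strand. The library kit keeps strand, but the counting's use of it is one of the settings not given in the sources used here, so reads from the overlap are uncertain for both genes. FBXL20, an F-box protein gene, and THRA, a thyroid hormone receptor gene, rose 1.99-fold and 1.47-fold. PGAP3, the neighbour on the other side of ERBB2, and STARD3, both near it, had log2 fold changes of -0.20 and 0.10 and did not pass (limma adjusted p = 0.18 and 0.17); they are named after their values were seen. The count of falls around ERBB2 was 2, but 1 with total count scaling or the replicate block. It was 1 as well without replicate 2 or 3 of siNT, or either of those of siTAZ, and 3 without siNT replicate 1.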

How the data were processed

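RNA from 6 libraries, 3 siNT and 3 siTAZ, was sequenced after purification on columns and stranded poly(A) library preparation from 1 µg of RNA, per the labels' protocols. Per the submitters' processing notes, the tools were HISAT2, HTSeq, DESeq2 and FastQC and the genome build hg19; for versions, annotation, strand setting and gene filter the sources give nothing. The deposited signal is a read count divided by 1 size factor per library (0.828 to 1.17), which was found from the values: 100% were whole multiples of 1 step within 0.001 of a read. Dividing by the step recovered the reads. Symbols came from a table of Ensembl identifiers (16662 genes) and GENCODE release 29 (81), and 468 stayed unnamed.

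Limma 3.58.1 (R 4.3.3) with an intensity trend was fitted to log2 values, after adding 1 to each deposited value, for 17204 genes whose mean was 1 or more, with group as the only term, Benjamini-Hochberg adjustment and a threshold of 0.05. On the recovered reads, edgeR 4.0.16, a quasi-likelihood test, called 9630 genes and DESeq2 1.42.0 called 8753, against limma's 9604. Each test was tried on simulated data in which far fewer genes changed than were called here. That trial therefore cannot show how the scaling behaves in these data. RPKM used recovered reads, each library's total and merged exon length.

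The 8 genes and all lists were chosen with earlier results of these data known. Genes named beside them are up to 4 called genes of each list with the smallest adjusted p, all measured family members, and the 4 genes most like the highest and lowest of the 8, some of which are not reported here. Tables were handled in Python 3.11.15 with pandas 2.3.3, and figures were drawn with matplotlib 3.10.9. Alternatives are given in the closing section.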

Additional observations from a re-analysis of the deposited data

How the results depend on the processing

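Over 15 alternatives (pseudocounts of 0.5 and 10, a filter of 1 CPM in 3 libraries, no filter, TMM and total count scaling, edgeR, DESeq2, the replicate block and each library left out), 59 to 66 of the other ERBB pathway genes, 25 to 29 of the other receptor kinases and 12 to 15 of the chromosomal neighbours were called, against 65, 29 and 14. All genes called numbered 8540 to 9674. The log2 fold change kept its sign under all 15 for 7 of the 8 genes, with ranges of 1.69 to 1.78 for ERBB3, 1.09 to 1.18 for ERBB2, 0.49 to 0.58 for EREG, 0.15 to 0.23 for TGFA, -0.68 to -0.54 for HBEGF, -0.16 to -0.09 for EGFR and -0.10 to -0.03 for ERRFI1. The exception was AREG (-0.25 to 0.00). Total count scaling moved the median of all genes from -0.00126 to 0.0517. With the replicate block, 8701 genes, 59 pathway genes, 28 kinases and 12 neighbours were called. Same-numbered siNT and siTAZ libraries deviated from their group means with r of -0.53, -0.30 and -0.09 across genes, so the numbers were not treated as pairs. Libraries of unlike number had r from -0.37 to 0.47. Any source of variation shared by the groups was not tested, and the main fit has no term for one. With 3 libraries a group, the depth of AREG, BTC and NRG2 (under 100 in deposited value) limits what can be seen. The same holds for the sparse receptor kinases.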
